A study of Mus musculus with 4 samples.

Results

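The collagen genes COL4A1, COL6A3 and COL13A1 were followed in breast cancer xenografts with and without an shRNA against the protein acyltransferase DHHC3. They were taken as every probe set whose platform annotation gave exactly 1 gene symbol beginning with COL, a number and the letter A. This found 3 probe sets for 3 genes, of 137 probe sets and 99 singly named genes in the deposited table. The family was selected on values of this same comparison, the higher levels of these genes in the DHHC3 shRNA tumors, and every probe set in the table already separates the 2 groups. For that reason levels and fold changes are given as a description, with no test.

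Both groups were tumors of the human line MDA-MB-231, which was derived from a triple-negative breast cancer. The cells were grown orthotopically, in the mammary fat pad, and the hosts were female athymic mice (Crl:NU(NCr)-Foxn1nu). The cells of one group carried a control shRNA and those of the other an shRNA against DHHC3, the product of ZDHHC3, which attaches fatty acids such as palmitate to cysteines of other proteins. Each kind of cell was injected 10 times, tumor volume was followed for 30 days, and the labels give the tumors an age of 35 days. Tumor RNA was hybridised to 2 arrays per group, titled replicates 1 and 2, and each array is called a tumor here. The titles do not say whether the replicates of a group are separate tumors or repeat arrays. The sources used here do not give the number of hairpins, whether the cells were a clone or a pool, or whether tumors with the same hairpin grew in separate mice. The series title names tumor growth, oxidative stress and senescence as the subjects of the study. The comparison here asks how these collagen transcripts differed between the 2 kinds of tumor.

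Collagens are secreted or membrane-bound proteins built from 3 chains wound into a triple helix. Collagen IV forms the sheet-like network of basement membranes, collagen VI forms beaded filaments in the connective tissue around cells, and collagen XIII is a transmembrane collagen found at sites of cell adhesion. In breast tumors the collagen matrix is made by both fibroblasts and tumor cells, and it anchors cells, carries growth factors and sets tissue stiffness. Athymic mice lack mature T cells but keep fibroblasts, vessels and innate immune cells. In a xenograft most fibroblasts and vessels belong to the mouse, whereas the platform annotates its probes to human genes. How much mouse collagen RNA bound to them was not tested. In bulk tumor RNA, more cells that express a gene and more RNA per cell cannot be told apart.

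The targeted gene went with the labels: ZDHHC3 read 971 and 854 arbitrary intensity units in the control shRNA tumors and 240 and 264 units in the DHHC3 shRNA tumors. Median intensity over the table was 312 to 351 units on the control arrays and 458 to 484 units on the DHHC3 shRNA arrays. Alternative scalings are given further on. They rest on these same probe sets, most of which were higher, so they cannot separate array scaling from the differences themselves. The part of array scaling in the collagen values was not measured.

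All 3 collagens were higher in the DHHC3 shRNA tumors, in both tumors of the group. With deposited values, each was above both control tumors, so the groups did not overlap. Of all 137 probe sets, 73.7% were likewise higher with no overlap, and 100% passed the limma test in one direction or the other, so the count of 3 of 3 is not read as a property of collagens. At least 2-fold higher was 1 of the 3, COL6A3, and 35.8% of all probe sets. The collagens differed in how far they lay above control: COL6A3 by 3.14-fold, COL4A1 by 1.92-fold and COL13A1 by 1.64-fold, as ratios of geometric means. The median fold of the 101 probe sets that were higher was 1.99, with a range from 1.57 to 4.11.

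**Figure D1:**
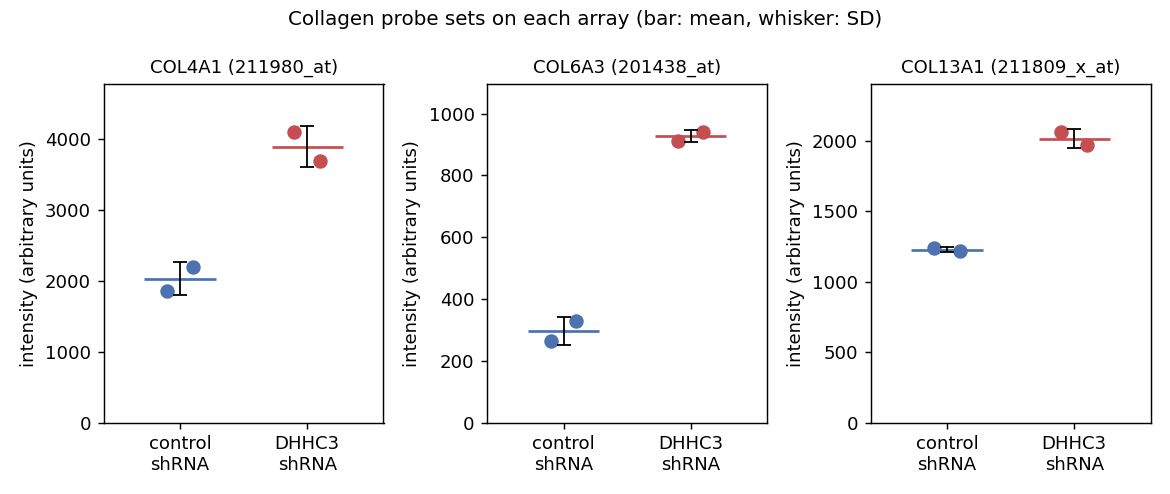
Intensity in arbitrary units, on a linear axis from 0, of the COL4A1, COL6A3 and COL13A1 probe sets on each of the 4 arrays; points are arrays, bars are means and whiskers SDs (n = 2 per group). In every panel both DHHC3 shRNA tumors lie above both control shRNA tumors, and the ratio between the group means is largest for COL6A3, from 297 to 927 units.

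COL4A1 encodes the alpha 1 chain of collagen IV, which with the chain of COL4A2 makes the form of collagen IV present in nearly all basement membranes, including those of blood vessels. A fragment cut from its end, arresten, is known as an inhibitor of vessel growth. Its probe set, 211980_at, read 1865 and 2197 units in control replicates 1 and 2 and 4105 and 3691 units in DHHC3 shRNA replicates 1 and 2. The group means were 2031 ± 235 (SD, n = 2) and 3898 ± 292 (SD, n = 2). Each group held 1 higher and 1 lower tumor, 1.18-fold apart in the controls and 1.11-fold apart after DHHC3 shRNA, while the nearest tumors of opposite groups were 1.68-fold apart. Taken tumor against tumor, the 4 ratios of a DHHC3 shRNA tumor to a control tumor ran from 1.68 to 2.20. On the log2 scale the difference of 0.94 was within 0.01 of the median difference of 0.94 over all 137 probe sets, so COL4A1 lay at the middle of the table. Among the 101 higher probe sets it was number 66 in the order of folds, below their median.

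COL6A3 encodes the alpha 3 chain of collagen VI, the largest of its chains. The end of this chain is cut off to form endotrophin, a fragment studied in breast tumors and fat tissue. Its probe set, 201438_at, read 265 and 330 units in control replicates 1 and 2 and 913 and 940 units in DHHC3 shRNA replicates 1 and 2. The means were 297 ± 46.0 (SD, n = 2) and 927 ± 19.3 (SD, n = 2). The control tumors were 1.25-fold apart and the DHHC3 shRNA tumors 1.03-fold apart, against 2.77-fold between the nearest tumors of opposite groups. The 4 tumor-against-tumor ratios ran from 2.77 to 3.56, and most of that spread came from the difference between the control tumors. In the order of folds, COL6A3 was number 9 of the 101 higher probe sets and number 5 of the 66 higher ones with 1 gene symbol. The chains that pair with it in collagen VI, COL6A1 and COL6A2, were not analysed here.

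COL13A1 encodes the chain of collagen XIII, which spans the cell membrane, is made in many spliced forms and is needed for the upkeep of the junction between nerve and muscle. Its probe set, 211809_x_at, read 1243 and 1217 units in control replicates 1 and 2 and 2064 and 1970 units in DHHC3 shRNA replicates 1 and 2. The means were 1230 ± 18.2 (SD, n = 2) and 2017 ± 66.8 (SD, n = 2). This was the tightest of the collagens among the controls, with tumors 1.02-fold apart, and the DHHC3 shRNA tumors were 1.05-fold apart. The 4 tumor-against-tumor ratios ran from 1.59 to 1.70, and COL13A1 was number 100 of the 101 higher probe sets in the order of folds. The suffix _x_at marks a probe set whose probes can bind other transcripts, and 28 probe sets of the table carry it, of which 22 were higher. Which transcripts gave the signal of COL13A1 is therefore uncertain.

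**Figure D2:**
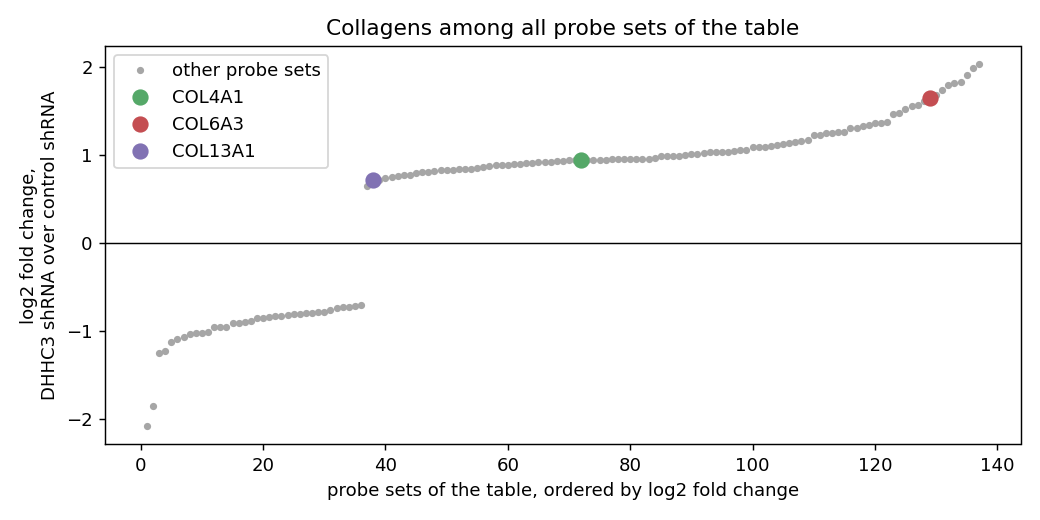
The 137 probe sets of the table in the order of their log2 fold change, DHHC3 shRNA over control shRNA, with the collagens coloured. COL6A3 lies near the upper end at 1.65, COL4A1 in the middle at 0.94, and COL13A1 at 0.71 near the lower end of the probe sets above 0.

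Ratios between collagens on the same array do not depend on a common scaling factor of that array, and they show whether the collagens moved by unequal amounts. A background added to the intensities does not cancel in them, and signal over background is unknown. Probes differ in how strongly they bind, so the change in such a ratio is read, not its size on one array. The log2 ratio of COL6A3 to COL4A1 was -2.82 and -2.74 in control replicates 1 and 2 and -2.17 and -1.97 in DHHC3 shRNA replicates 1 and 2. COL6A3 therefore gained 0.71 on COL4A1 on the log2 scale, a 1.63-fold shift, and the nearest arrays of opposite groups lay 0.57 apart against at most 0.20 within a group. Against COL13A1, the log2 ratio of COL6A3 was -2.23 and -1.88 in the controls and -1.18 and -1.07 after DHHC3 shRNA, in the same order of replicates. The shift was 0.94, or 1.91-fold, and the gap between groups was 0.71, against 0.35 between the controls. Which transcripts gave the COL13A1 signal is uncertain, so ratios with it may not concern collagen XIII alone.

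COL4A1 and COL13A1 differed less from each other. Their log2 ratio was 0.59 and 0.85 in the controls and 0.99 and 0.91 in the DHHC3 shRNA tumors. The groups did not overlap, but the gap between them was 0.05, smaller than the 0.27 between the 2 control tumors. The shift of 0.23 on the log2 scale was thus within the spread between control replicates. These ratios describe the same 4 arrays and the same comparison that chose the collagens, and they carry no test. If the 4 arrays are separate tumors, the smallest p that an exact permutation test of 2 against 2 allows, two-sided, is 0.333.

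**Figure D3:**
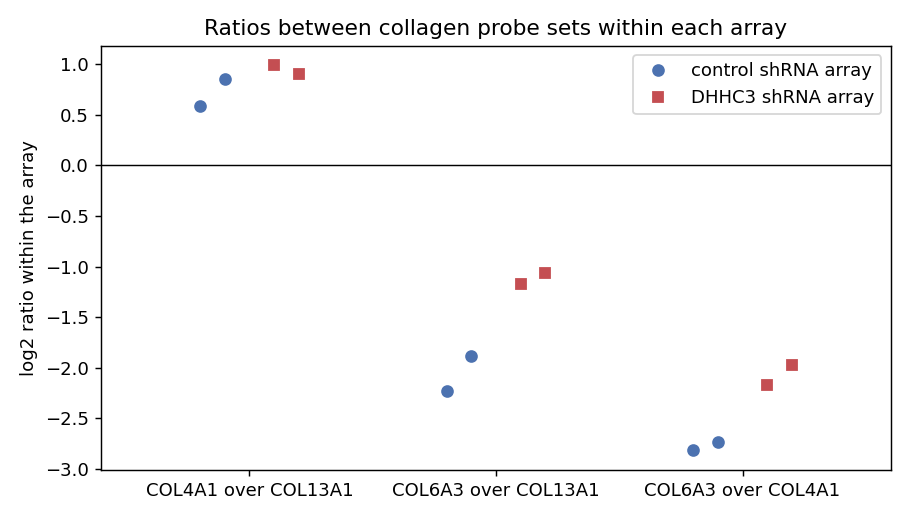
Log2 ratio between the intensities of 2 collagen probe sets on the same array, for each pair of collagens; circles are control shRNA arrays and squares DHHC3 shRNA arrays. The ratios of COL6A3 to COL13A1 and to COL4A1 are separated by 0.71 and 0.57, whereas for COL4A1 over COL13A1 the groups are 0.05 apart.

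The size of the collagen folds depended on the scaling applied over the table. With each array centred on its median over the table, COL6A3 was 2.21-fold, COL4A1 1.35-fold and COL13A1 1.15-fold higher, and both DHHC3 shRNA tumors still lay above both controls for each of them. For COL13A1 the nearest arrays of opposite groups were then 0.10 apart on the log2 scale, less than the 0.20 between its 2 controls. Centring lowered the log2 fold change of the median probe set by 0.51, and by its construction it pulls down a table in which most probe sets were higher. After quantile normalization over the table, COL6A3 was 2.79-fold, COL13A1 1.42-fold and COL4A1 1.20-fold higher. It lowered the median log2 fold change by 0.58, and by its construction it too pulls down such a table. Neither setting shows whether the arrays differed in scaling. COL4A1 and COL13A1 changed places in that setting, and for COL4A1 the nearest arrays of opposite groups were then 0.09 apart on the log2 scale, less than the 0.31 between its 2 controls. COL6A3 had the largest of the 3 folds under every scaling, pseudocount and left-out array tried. Centring takes the same amount off every log2 fold change, so it could not change their order. Leaving out an array could not change which was largest either. The lowest tumor-against-tumor ratio of COL6A3, 2.77, was above the highest of COL4A1, 2.20, and of COL13A1, 1.70. With a pseudocount of 100 units the fold of COL6A3 was 2.59, against 1.88 for COL4A1 and 1.59 for COL13A1, so COL6A3 lay less far above the others.

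**Figure D4:**
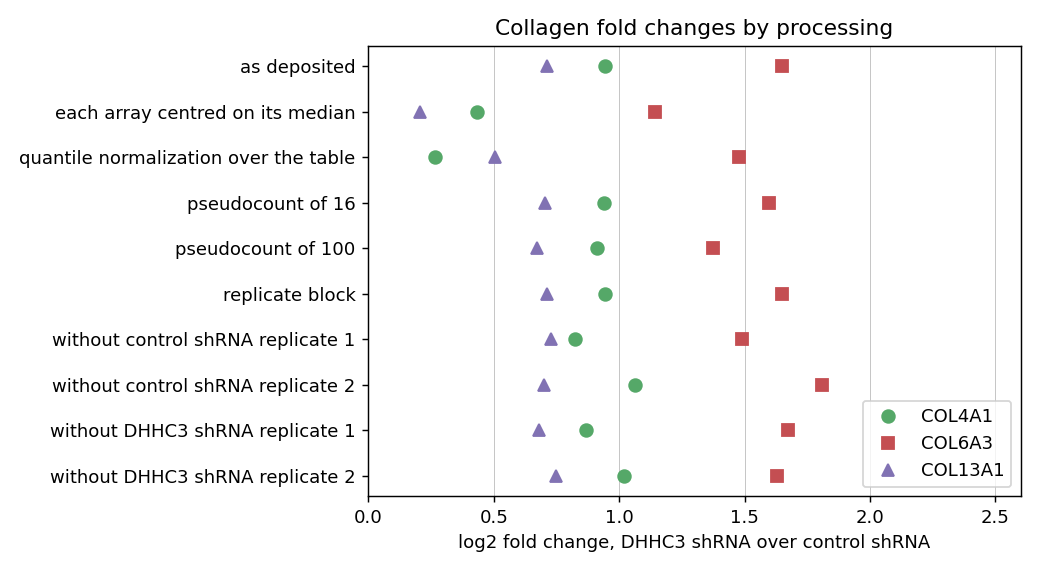
Log2 fold change of COL4A1, COL6A3 and COL13A1, DHHC3 shRNA over control shRNA, as deposited and under each alternative processing. All values are above 0; COL6A3 runs from 1.14 with centred arrays to 1.81 without control replicate 2, the lowest value of COL4A1 is 0.27, after quantile normalization, and that of COL13A1 is 0.20, with centred arrays.

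The search for the patterns nearest to each collagen over the 4 arrays covered probe sets with 1 gene symbol. Those with none or several were left out, and some of them may lie nearer. Distances were Euclidean, between log2 values with each probe set's own mean subtracted. For COL6A3 the nearest were SPDYE2, ANKRD36B and PIP5K1B, at distances of 0.15, 0.24 and 0.29. SPDYE2, which belongs to a family of near-identical copies, went from 75.5 to 239 units in the group means, and PIP5K1B, a phosphatidylinositol phosphate kinase, was dim, at 11.7 and 40.5 units. For COL4A1 the nearest were ZBTB7A, a transcriptional repressor, SBF1, a pseudophosphatase of the myotubularin family, and GABPB1-IT1, a non-coding transcript, at 0.06, 0.07 and 0.07. Chosen by distance over the same arrays, these 3 shared the higher control replicate 2 and higher DHHC3 shRNA replicate 1 of COL4A1. ZBTB7A, for instance, read 364 and 434 units in the controls and 772 and 701 units after DHHC3 shRNA.

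For COL13A1 the nearest were SCRIB, a cell polarity protein, MTDH, a protein studied in breast cancer metastasis, and ATM, a kinase activated by DNA breaks, at 0.05, 0.07 and 0.07. SCRIB read 1274 and 1256 units in the controls and 2207 and 2033 units after DHHC3 shRNA. The collagens were not among each other's 3 nearest probe sets. COL4A1 and COL13A1 were 0.30 apart, COL4A1 and COL6A3 0.72, and COL6A3 and COL13A1 0.97. For the pairs with COL6A3 these lie close to the shifts in log2 ratio, 0.71 and 0.94, so they largely restate the unequal folds. Over 4 arrays such distances describe these libraries only.

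Other genes of the collagen matrix gave few values to set beside these. Of 44 collagen genes listed, the 3 described here were in the table, all of them higher, and the other 41 were not analysed here. Of 106 further matrix genes, in 5 lists of basement membrane proteins, collagen-processing enzymes, collagen receptors, matrix-degrading enzymes with their inhibitors, and other matrix proteins, 0 were in the table. These include the laminins, the prolyl and lysyl hydroxylases, the lysyl oxidases, the collagen-binding integrins and the matrix metalloproteinases. Their levels were not analysed here, so whether the collagens moved with their own processing enzymes or receptors is not shown.

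Markers of cells that make collagen gave 1 value. Of 12 fibroblast markers, S100A4 was in the table, and tumor cells express it too. It went the opposite way to the collagens, with 9351 and 8746 units in the control tumors and 4265 and 4313 units in the DHHC3 shRNA tumors. Of the 8 endothelial, 7 pericyte and smooth muscle, 5 adipocyte, 7 macrophage and 8 MDA-MB-231 markers listed, 0 were in the table, so neither the host cells nor the tumor line could be checked against its defining genes. The part of cell composition in the collagen values was not tested.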

How the data were processed

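The deposited table gives intensity (linear scale) for 137 probe sets on 4 arrays. The labels' protocols describe biotin-labelled cRNA made from tumor RNA. How the authors summarised, background-corrected and scaled the values, and how they chose these probe sets, is not given in the sources used here. Sample labels give the mouse host as the organism, while the platform annotation names human genes: 101 probe sets had 1 symbol, 7 several and 29 none. No human genome was used, so positions and sequences are not given.

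Intensities were turned into log2 values with no pseudocount, filter or further normalization. The fit over all 137 probe sets used R 4.3.3 with limma 3.58.1 (functions lmFit and eBayes, no covariates), with Benjamini-Hochberg adjustment and a threshold of 0.05, and was tested on simulated data. It gave the share of probe sets called. Named genes were the collagens, ZDHHC3, listed genes found in the table, and the 3 nearest probe sets of each collagen. The members and lists were chosen with earlier results of these data known. Figures used matplotlib 3.10.9. The number of arrays limits the precision, and the spread measured is that between these samples, which may be technical.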

Additional observations from a re-analysis of the deposited data

How the results depend on the processing

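The direction of COL4A1, COL6A3 and COL13A1 held under every alternative run, but their sizes moved with the scaling applied over the table. As deposited, the log2 fold changes were 0.94, 1.65 and 0.71. They were 0.43, 1.14 and 0.20 with arrays centred on their medians and 0.27, 1.48 and 0.51 after quantile normalization over the table. With a pseudocount of 100, COL4A1 had 0.91, COL6A3 1.38 and COL13A1 0.67. Leaving out 1 array at a time gave 0.82 to 1.06 for COL4A1, 1.49 to 1.81 for COL6A3 and 0.68 to 0.75 for COL13A1. All 137 probe sets passed the limma threshold, 124 with centring, 104 after quantile normalization, 134 with ordinary 2-sample statistics, and 60 when a 2-fold difference was also asked for, which is stricter by construction. With the replicate number of the titles as a block, all 137 passed. The collagen values stayed as deposited, which the balanced layout fixes in advance, so this is no check of them. Same-numbered arrays deviated with a correlation of 0.06 over probe sets, so the numbers are not taken to pair the tumors. The table lists only probe sets whose groups lie apart, by at least 1.56-fold between the nearest arrays, so held directions are no sign of stability. Signal over background is unknown.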
